A study of Mus musculus with 7 samples.

Results

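Transcripts of the lung lining were measured in 7 RNA libraries of cells sorted from mouse hearts as type 2 innate lymphoid cells (ILC2s), which are tissue lymphocytes without antigen receptors. The 9 genes described here are 4 of the alveolus (Sftpc, Sftpb, Sftpa1 and Sftpd) and 5 of the conducting airway (Scgb1a1, Scgb3a1, Scgb3a2, Cyp2f2 and Bpifa1), out of 55335 genes in the deposited tables. They were chosen by their names, with their counts in these libraries already known, so their levels are given as a description, and no support is drawn from the fits they entered. The study compared 3 libraries of naive hearts with 4 libraries of heart allografts from a Balb/C to C57BL/6 (B6) transplant model that develops acute rejection, with the time entry of 7 days. The libraries are called N1 to N3 (naive replicates 1 to 3) and A1 to A4 (allograft replicates 1 to 4), after their labels. The labels give no genotype and no age, and they name no strain for the naive hearts, which carry the same time entry. Cells of both groups were sorted as CD45+, lineage-negative and ST2+, and each library pooled the cells of 4 to 7 hearts, so that single animals cannot be seen. In such bulk libraries, fewer cells of a type and less RNA per cell cannot be told apart.

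Pulmonary surfactant is the film of lipid and protein that lowers surface tension in the alveoli, and alveolar type II cells make it and store it in lamellar bodies. Club cells line the small airways and release secretoglobins, and upper airway glands and surface cells release defence proteins of the BPI fold family. The transcription factors Nkx2-1 and FoxA are known to act on surfactant and secretoglobin promoters.

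Promoter sequence from RefSeq (GRCm38.p6, the assembly also called mm10) was matched by symbol for 5 of the 9 genes. The stretches upstream of 4 of these start sites are printed, 2 of them of alveolar and 2 of them of airway genes. A link between these letters and the levels below was not tested. Each reads 5′ to 3′ and ends before the first exon base in RefSeq or GENCODE M21. Capitals mark matches on either strand to the Nkx2-1 core (CTCAAG or CAAGTG) and to the FoxA core (TGTTTNC), and where 2 matches overlap the capitals run together.
Sftpa1, chr14:41131538-41131781, plus strand: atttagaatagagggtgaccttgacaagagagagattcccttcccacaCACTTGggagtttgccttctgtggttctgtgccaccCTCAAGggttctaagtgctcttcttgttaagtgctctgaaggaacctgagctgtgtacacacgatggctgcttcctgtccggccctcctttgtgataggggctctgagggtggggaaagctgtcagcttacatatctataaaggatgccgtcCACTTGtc
Sftpb, chr6:72304360-72304609, plus strand: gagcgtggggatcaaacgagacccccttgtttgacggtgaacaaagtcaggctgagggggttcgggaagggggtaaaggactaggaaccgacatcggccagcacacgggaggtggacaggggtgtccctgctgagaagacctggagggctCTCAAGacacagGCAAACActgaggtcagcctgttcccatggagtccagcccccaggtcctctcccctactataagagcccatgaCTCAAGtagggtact
Scgb3a1, chr11:49663345-49663594, plus strand: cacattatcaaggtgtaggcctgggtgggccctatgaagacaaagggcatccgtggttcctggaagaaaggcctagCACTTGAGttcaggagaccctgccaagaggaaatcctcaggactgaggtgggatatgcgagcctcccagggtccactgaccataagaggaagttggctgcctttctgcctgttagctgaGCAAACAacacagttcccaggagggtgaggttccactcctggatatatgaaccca
Cyp2f2, chr7:27119705-27119908, plus strand: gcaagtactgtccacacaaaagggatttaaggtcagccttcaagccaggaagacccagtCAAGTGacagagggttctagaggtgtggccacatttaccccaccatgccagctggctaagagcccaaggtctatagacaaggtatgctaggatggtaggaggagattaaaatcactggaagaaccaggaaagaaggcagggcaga

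Within 250 bases upstream of the start, Sftpa1 held 3 Nkx2-1 core matches, Sftpb and Scgb3a1 held 2 each, and Cyp2f2 and Bpifa1 held 1 each. In Scgb3a1 both matches overlap. The FoxA core occurred 1 time each in Sftpb and Scgb3a1 and had no match in this window of the other genes. Among 32817 mouse promoter windows of that length, 22.6% held the Nkx2-1 core and 17.84% held the FoxA core. A match describes letters only.

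Depth and library make-up bear on every value. Total counts ran from 29107326 to 53044907, and a count of 0 allows up to 3 counts, or 0.0566 to 0.103 CPM (counts scaled to the library total). Intervals and this floor cover counting error only, since amplified cDNA without molecular identifiers does not give independent molecules. Sums over 11 ILC2 genes, among them Il1rl1, which encodes ST2, and Gata3, lay between 11870 and 14747 CPM in 6 libraries and at 1151 CPM in N2. That library also held 10618 CPM of 12 kidney genes, against 72.1 to 305 CPM in the others. The leading ILC2 genes were Id2, Rora and Areg, and the leading kidney genes were Umod, Kap and Aqp2. Of these, Aqp2 was not confined to N2, with 0, 993 and 164 CPM in N1, N2 and N3 and 58.6 to 94.4 CPM in the allografts. Actn2, Ttn and Tnni3 led the heart muscle list. Of its other genes, Tnnt2, Myl2 and Mb had 0 counts in every library, and Myh6 and Myl3 had 29 and 32 counts in N2 alone. Tnni3 had 0, 1.36 and 9.22 CPM in N1, N2 and N3 and 1.61, 2.38, 3.57 and 0 CPM in A1 to A4. Actc1 had 0 counts in the naive libraries and 3.98, 3.21, 0 and 1.07 CPM in A1 to A4.

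The 9 genes divided the libraries across the labelled groups. N3 and all 4 allograft libraries carried them at 238 to 685 CPM in sum, whereas N1 and N2 held almost none. Summed counts were 64, 4 and 29854 in N1, N2 and N3 and 21909, 7724, 26803 and 19012 in A1 to A4. As a share of all counts, the sum was 0.0685% in N3 (95% Wilson interval 0.0677% to 0.0693%). The lowest share among the allografts was 0.0238% in A2 (0.0233% to 0.0244%), and the highest was 0.0656% in A3 (0.0648% to 0.0664%). N3 thus exceeded every allograft library, and N1 and N2 lay below all of them. Counting a gene as detected above 3 counts, 2, 1 and 6 of the 9 genes were detected in N1 to N3. The numbers were 9, 5, 6 and 7 in A1 to A4. The ILC2 sum of N1 (12237 CPM) was within the range of the allografts.

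**Figure D1:**
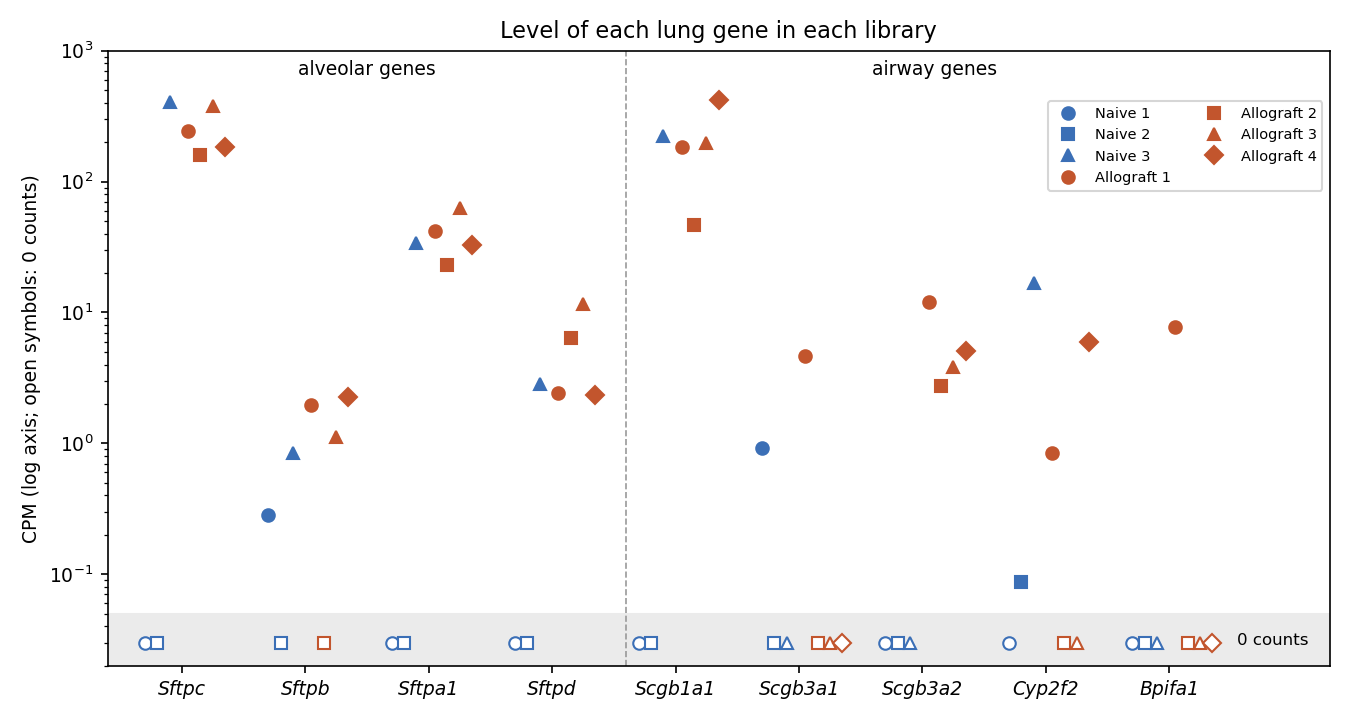
CPM of each of the 9 lung genes (log axis) in 3 naive libraries (blue) and 4 allograft libraries (orange), with 1 symbol per library and open symbols in the grey band for 0 counts. Sftpc, Sftpa1, Sftpd and Scgb1a1 have 0 counts in N1 and N2 and counts in the other 5 libraries.

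Sftpc gave the most counts of the alveolar genes. It encodes surfactant protein C, a small hydrophobic protein made by alveolar type II cells, and lies at chr14:70520949-70524081 (mm10, minus strand, 5 merged exons, GENCODE M21). It had 0, 0 and 17748 counts in N1, N2 and N3, or 407 CPM in the third. The allograft libraries had 244, 159, 379 and 183 CPM in A1 to A4, a mean of 241 ± 98.6 CPM (SD, n = 4). N3 was above all 4 allografts, so the groups overlapped. Ranked by FPKM (fragments scaled to gene length and to library depth), Sftpc was the 151st most abundant gene in N3, and it ranked between 191st and 470th in the allografts.

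Sftpa1 and Sftpd encode the collectins SP-A and SP-D, soluble lectins that bind microbes in the alveolar fluid. Both lie on chromosome 14, Sftpa1 at chr14:41131782-41136452 (plus strand) and Sftpd at chr14:41172214-41185149 (minus strand). Sftpa1 had 0, 0 and 34.2 CPM in N1, N2 and N3 and 41.8, 22.9, 62.8 and 32.5 CPM in A1 to A4. Sftpd had 0, 0 and 2.84 CPM in N1, N2 and N3 and 2.41, 6.42, 11.7 and 2.34 CPM in the allografts. Both genes were thus present in the same 5 libraries as Sftpc, and N3 lay inside the allograft range for each. A3 had the highest level of all 3 of these genes among the allografts, and their lowest allograft library differed, A2 for Sftpc and Sftpa1 and A4 for Sftpd.

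Sftpb encodes surfactant protein B, which is needed to form lamellar bodies and is made by both type II and club cells (chr6:72304610-72314371, plus strand). It was scarce wherever it was found, at no more than 0.995 FPKM. Its counts were 15, 0 and 37 in N1, N2 and N3 and 87, 0, 46 and 66 in the allografts, with a highest level of 2.27 CPM in A4. A2, with 5161 counts of Sftpc, had 0 counts of Sftpb, and N1, with 0 counts of Sftpc, had 15. Sftpb therefore did not follow Sftpc in presence.

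Scgb1a1 was the airway gene with the highest FPKM in each of N3 and A1 to A4. It encodes the club cell secretory protein, also called uteroglobin (chr19:9083636-9087958, minus strand, 3 merged exons). N1, N2 and N3 had 0, 0 and 223 CPM, and A1 to A4 had 182, 47.0, 197 and 423 CPM. A4 was highest and A2 lowest, an 8.99-fold range among the allografts, against 2.38-fold for Sftpc and 2.74-fold for Sftpa1. By FPKM, Scgb1a1 ranked 75th of all genes in A4 and 739th in A2.

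Scgb3a2, a secretoglobin of club cells, was the 1 gene of the 9 with counts in every allograft library and in no naive library. The allografts had 12.0, 2.75, 3.84 and 5.08 CPM in A1 to A4. The mean of 5.92 ± 4.17 CPM (SD, n = 4) was 92.9-fold the mean of the naive floors of 3 counts per library. That value covers counting error only and is no lower bound on a difference, as N1 and N2 held almost none of the 9 genes. N3 had 0 counts of Scgb3a2 beside 9724 counts of Scgb1a1.

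The other 3 airway genes were patchy. Cyp2f2, a cytochrome P450 of club cells (chr7:27119909-27133660, plus strand), had 0, 4 and 729 counts in N1, N2 and N3 and 37, 0, 0 and 172 in the allografts. N3, at 16.7 CPM, was highest for Cyp2f2, above 5.91 CPM in A4. Exons of Gm15883 on the opposite strand overlap those of Cyp2f2, and without a statement on strand their reads cannot be told apart. Scgb3a1, a secretoglobin of the larger airways (chr11:49663610-49665118, plus strand), had 49 counts in N1, 204 in A1 and 0 in the other libraries. Bpifa1, a secreted airway protein also called SPLUNC1 (chr2:154142880-154149219, plus strand), had 338 counts in A1 and 0 in the other 6 libraries. A1 was the library in which all 9 genes were detected. Bpifb1, a relative of Bpifa1, Reg3g, an antimicrobial lectin, and Muc5b, an airway mucin, were named after their values were seen. They had 6.77, 3.00 and 0.613 CPM in A1 and 0 counts in the others. All 3 belong to the list of airway secretory and goblet cell genes, whose other genes did not all share this. Muc5ac, Spdef, Gabrp, Upk3a and Agr2 of that list had 0 counts in A1, and Tff2, Fmo2 and Lypd2 had 2, 8 and 15.

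Alveolar and airway genes did not keep 1 proportion across libraries. The alveolar genes summed to 445 CPM in N3 and to 290, 189, 455 and 220 CPM in A1 to A4. The airway genes summed to 240 CPM in N3 and to 208, 49.7, 201 and 433 CPM in the same allografts. The alveolar share of the members' counts was 65.0% in N3 (95% Wilson interval 64.4% to 65.5%). It was 79.1% (78.2% to 80.0%) in A2 and 33.6% (33.0% to 34.3%) in A4, with 58.3% and 69.3% in A1 and A3. A4 was the 1 library of these 5 with more airway than alveolar counts. Sftpc supplied 83.1% to 91.5% of the alveolar counts and Scgb1a1 87.9% to 98.1% of the airway counts in these 5 libraries. On the FPKM scale, which divides by gene length, the alveolar share was 46.1% in N3 and 38.1%, 61.8%, 48.5% and 17.5% in A1 to A4.

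**Figure D2:**
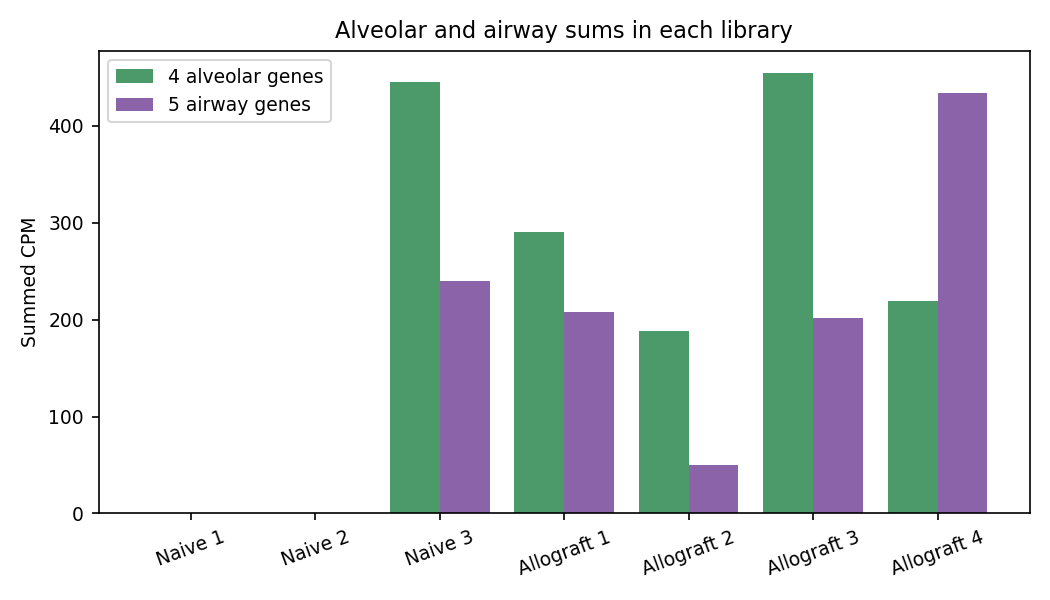
Summed CPM of the 4 alveolar genes (green) and the 5 airway genes (purple) in each of the 7 libraries, with 1 bar per sum. Airway counts exceed alveolar counts in A4, at 433 against 220 CPM, and both sums are under 1 CPM in N1 and N2.

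Levels were set against each other within a library by the ratio of their FPKM. The ratio of Sftpc to Scgb1a1 was 0.841 in N3 and 0.617, 1.56, 0.885 and 0.199 in A1 to A4, a 7.85-fold range. Per length, Scgb1a1 was thus above Sftpc in N3, A1, A3 and A4 and below it in A2. The ratio of Sftpc to Sftpa1, both of type II cells, was 33.1 in N3 and 15.6 to 19.3 in the allografts. Over the same libraries the ratio of Sftpa1 to Sftpd went from 3.01 to 14.8. Sftpc exceeded Sftpb by 154-fold to 922-fold in the 4 libraries with both. Scgb1a1 exceeded Scgb3a2 by 28.1-fold to 154-fold in the 4 allografts. Scgb1a1 exceeded Cyp2f2 by 56.9-fold to 932-fold in 3 libraries. The narrowest of these ratios was therefore that of Sftpc to Sftpa1, with a 2.12-fold range, and the widest was that of Scgb1a1 to Cyp2f2, with a 16.4-fold range over 3 libraries.

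**Figure D3:**
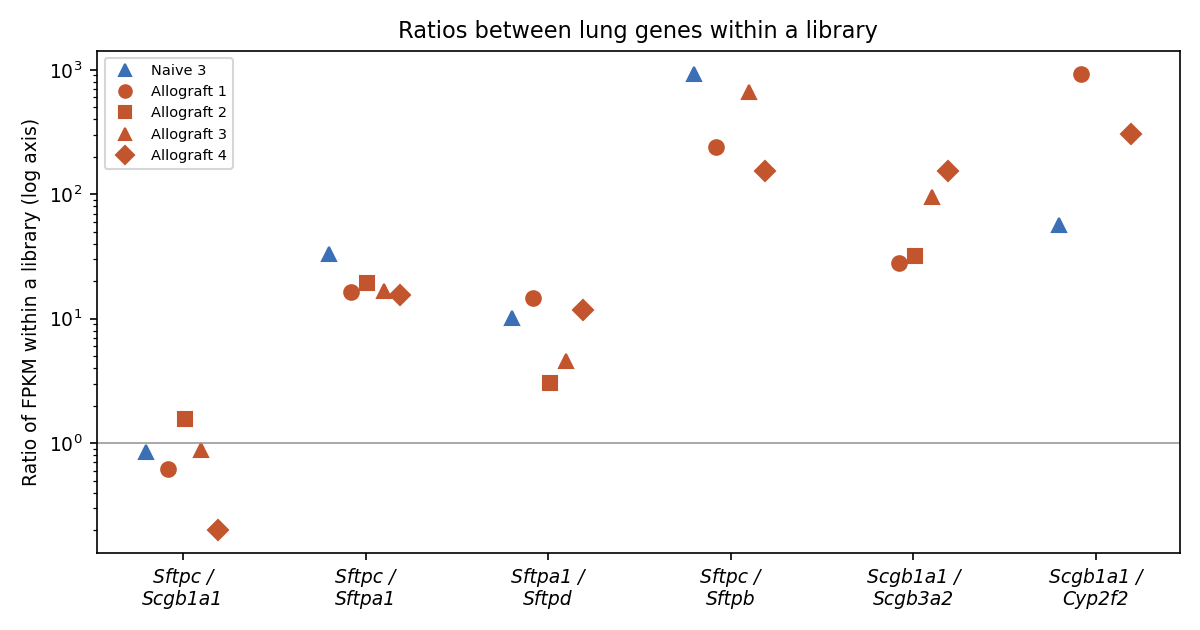
Ratio of FPKM between named pairs of lung genes within a library (log axis), with 1 symbol per library and a line at a ratio of 1. Sftpc to Sftpa1 stays between 15.6 and 33.1 in 5 libraries, and Sftpc to Scgb1a1 lies on both sides of 1.

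Presence in N3 and all allografts with 0 counts in N1 and N2 was then counted over all genes, a pattern set after the values were seen. Of 11333 genes above 3 counts in these 5 libraries, 126 (1.11%) had 0 counts in the other 2. Sftpc, Scgb1a1 and Sftpa1 ranked 1st, 2nd and 3rd of the 126 by mean CPM over the 5 libraries, a scale without gene length, and Sftpd ranked 41st. The next gene, Abcg3, had a mean of 22.5 CPM, against 38.8 CPM for Sftpa1 and 274 CPM for Sftpc. The first 20 also held genes of blood cells, named after their values were seen: Tpsab1, a mast cell tryptase, Trat1, a T cell adaptor, Cd70, a TNF family ligand, and Ear2, a ribonuclease of eosinophils and alveolar macrophages. The 126 genes are thus not a list of lung genes.

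The genes most like the sums in profile over the 7 libraries were on none of the lung lists. By Pearson's r of log2(CPM + 0.5) over 18951 genes with at least 1 CPM in a library, the 5 nearest to the alveolar sum were Arid5a (r = 0.996), Cd70 (0.991), Gm45051 (0.990), Gm8093 (0.989) and Pitpnc1 (0.989). The 5 nearest to the airway sum were Il3ra (r = 0.986), Prr5l (0.983), Spata2 (0.980), Parp3 (0.979) and Mirt1 (0.978). These values rest on 7 libraries of which 2 are near 0 for both sums, and they are a description.

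Of the genes around the 9, those fixed as lists of lung and epithelial cells numbered 105, of which 104 were in the tables and 60 passed the filter on low counts. In edgeR's quasi-likelihood test of allograft against naive, 0 of the 60 passed an adjusted p of 0.05 over all 17015 genes, where 6 genes or 0.0353% passed. At an unadjusted p under 0.05 there were 11 of the 60, 7 of them higher in allografts, against 10.3% of all genes. DESeq2 called 5 of the 60 (Fabp4 lower, and Fasn, Hc, Rsph1 and Rtkn2 higher), against 1012 of all genes or 5.95%. Limma on FPKM called Hc alone, against 201 of all genes or 1.18%. Without N2, edgeR called 8 of 61, all higher in allografts (Cdh1, Emp2, Etv5, Krt18, Krt7, Krt8, Rtkn2 and Scd1), against 3.1% of all genes. Without N1 it called Hc alone of 64, against 0.568% of all genes. The all-gene count of 6 (5 higher, 1 lower) became 107 without N1, 560 without N2, and 0 without any 1 allograft library.

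The surfactant list held 20 genes, of which many make, pack or recycle surfactant or direct its synthesis. Others do not, such as S100g, Cxcl15 and Hc, which encodes a complement protein. Of the 18 tested genes of this list, 0 were called, and the median log2 fold change was -0.14, against -0.01 over all genes. Napsa, the protease that trims surfactant protein precursors, had 5.71, 234 and 50.01 CPM in N1, N2 and N3 and 34.9 to 61.5 CPM in the allografts. S100g, a calcium-binding protein of type II cells and of kidney and gut, had 0, 642 and 74.1 CPM in N1, N2 and N3 and 31.9 to 44.2 CPM in the allografts. Fabp5, a fatty acid carrier, had 85.8, 8.51 and 29.6 CPM in N1, N2 and N3 and 91.3 to 109 CPM in the allografts. Napsa and S100g were highest in N2, where Sftpc had 0 counts. N2 was also the library with 10618 CPM of kidney genes, and the part of kidney cells in these levels was not tested. Regulators of type II cells and lamellar body genes were then read in the libraries that held Sftpc. Nkx2-1 had 15 counts in A1, 4 in A4 and 0 elsewhere, and Foxa2 had 0 counts in every library. Foxa1 had 7 counts in N1, 0 in N2 and N3, and 48, 0, 14 and 24 counts in A1 to A4. Etv5 had counts in every allograft (151, 117, 295 and 67), with 90 in N2 and 0 in N1 and N3. Cebpa, a regulator also of liver and myeloid cells, had 22, 7, 69 and 8 counts in the allografts, with 277 in N2 and 0 in N1 and N3. In N3, which held 17748 counts of Sftpc, all 5 of these genes thus had 0 counts. Lamp3, of lamellar bodies, reached at most 0.636 CPM, and Abca3, the lamellar body lipid transporter, had 0 counts in N3, 47.4 CPM in N2 and 5.53 to 12.3 CPM in the allografts. In 5 of the 18 tested genes (Etv5, Fabp5, Fasn, Hc and Scd1, named after their values were seen) every allograft was above every naive library, against 12.5% of all genes. Cxcl15, a chemokine of lung epithelium, was the 1 gene of the list with at most 3 counts in N1 and N2 and more in N3. It had 15.9 CPM there and 1.94 to 9.08 CPM in the allografts.

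General epithelial markers were highest in N2, which held almost none of the lung transcripts. The sum over 12 epithelial genes was 2.22 CPM in N1, 54.7 in N3 and 43.5 to 62.8 CPM in the allografts, but 1778 CPM in N2. Epcam, an adhesion molecule of epithelia, had 2.22, 399 and 29.3 CPM in N1, N2 and N3 and 11.8 to 26.5 CPM in the allografts. In N3, 3 of the 12 genes were above 3 counts, and Epcam and Krt19 (24.2 CPM) made up nearly all of its sum. In the allografts 7 to 11 of the 12 were above 3 counts, and Krt19 had 0 counts in A2 to A4. The keratin genes Krt8 and Krt7 had 0 counts in N1 and N3, with 311 and 273 CPM in N2. The allografts had 2.06 to 5.94 CPM of Krt8 and 4.10 to 6.01 CPM of Krt7. Of the 11 tested epithelial genes 0 were called (median log2 fold change -4.08). Without N2, edgeR called Cdh1, Krt18, Krt7 and Krt8 higher in allografts, so the direction of these 4 rested on that library. The part of other epithelia in the lung transcripts was not tested.

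The airway list of 16 secretory and goblet cell genes was led by Cyp4b1, Cldn10 and Cbr2, and 0 of its 6 tested genes were called (median log2 fold change -4.30). Cyp4b1, a P450 of lung and kidney, had 1381 CPM in N2 and at most 2.84 CPM elsewhere. Cldn10, a tight junction gene, had 301 CPM in N2 and at most 2.22 CPM elsewhere. Cbr2, a carbonyl reductase of club and type II cells, had 0, 55.1 and 15.6 CPM in N1, N2 and N3 and 7.54, 3.89, 7.76 and 21.1 CPM in A1 to A4. Among the allografts Cbr2 was highest in A4 and lowest in A2, as Scgb1a1 was. Hp, which encodes haptoglobin, had 0, 0 and 24.2 CPM in N1, N2 and N3 and 0.522 to 2.74 CPM in the allografts. The mucin gene Muc5ac had 0 counts in every library. The ciliated cell list was led by Mlf1, Tppp3 and Cfap126, with 0 of 5 called (median 1.84). Of the 5, 3 were higher in allografts at an unadjusted p under 0.05, against 10.3% of all genes in either direction. Mlf1 had 130, 10.6 and 4.22 CPM in N1, N2 and N3 and 66.7 to 91.8 CPM in the allografts, so N1 was above all of them. Cfap126 had 1.70, 2.79 and 0 CPM in N1, N2 and N3 and 0.979 to 2.52 CPM in the allografts. Ccdc153 and Dnah5 had 0 counts in every library, and Dynlrb2 had counts in N2 alone. Tppp3, a tubulin-binding protein, had 4.75, 7.39 and 15.4 CPM in N1, N2 and N3 and 26.7 to 53.3 CPM in the allografts. Rsph1, a radial spoke protein, had 0 counts in the naive libraries and 0.147 to 1.72 CPM in the allografts. Sec14l3 had 0 counts in the naive libraries and A1, and 1.37 to 2.59 CPM in A2 to A4. The ciliated cell regulator Foxj1 had 0.206 CPM in A4 and 0 counts elsewhere.

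Alveolar type 1 cell genes, of the thin gas-exchange cells, summed to 9.54, 77.5 and 45.5 CPM in N1, N2 and N3 and 14.4 to 22.9 CPM in the allografts, and 0 of 7 tested were called (median -0.53). Vegfa, Hopx and Emp2 led this list, and Ager, its marker receptor, had 1.89 CPM in N2, 0 counts in N1 and N3 and 0.318 to 5.06 CPM in the allografts. Of 25 relatives of the 9 genes in the secretoglobin, BPI fold, collectin, Cyp2 and saposin families, 12 had no count in any library. Psap, Cyp2j6 and Cyp2s1 led these relatives, and 0 of 4 tested were called (median -4.56). The secretoglobin relatives Scgb1c1, Scgb2a2, Scgb1b27 and Scgb2b27 had 0 counts in every library.

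Of the genes of alveolar macrophages, which clear surfactant, Ear2 had 0 counts in N1 and N2 and counts in N3 and every allograft. Ear1 and Krt79 also had 0 counts in N1 and N2 and counts in N3, but Ear1 had 0 in A3 and Krt79 had 0 in A2 and A3. Chil3, a chitinase-like protein of these cells, had 0, 2.22 and 247 CPM in N1, N2 and N3 and 103, 43.8, 81.1 and 83.9 CPM in A1 to A4. Like Sftpc, Chil3 was highest in N3 and lowest among the allografts in A2. Pparg, a fatty acid-sensing receptor also present in lymphocytes, had 145, 8.88 and 55.6 CPM in N1, N2 and N3 and 87.2 to 150 CPM in the allografts. Plet1 had 0, 343 and 68.4 CPM in N1, N2 and N3 and 39.1 to 73.6 CPM in the allografts. Marco, a scavenger receptor of alveolar macrophages, was at 0 counts in 6 libraries and at 0.247 CPM in A2. Other genes of the list also differed from Sftpc. Siglecf and Mrc1 had 0 counts in N1, N2 and N3, with Siglecf at 0 in A2 and Mrc1 at 0 in A3. Atp6v0d2 was highest in N2, at 400 CPM, against 0.963 CPM in N3. Fabp4 was higher in every naive library than in any allograft, with 96.6 CPM in N2, 54.5 CPM in N3 and at most 4.02 CPM in the allografts. Of 9 tested, 0 were called (median -0.16).

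**Figure D4:**
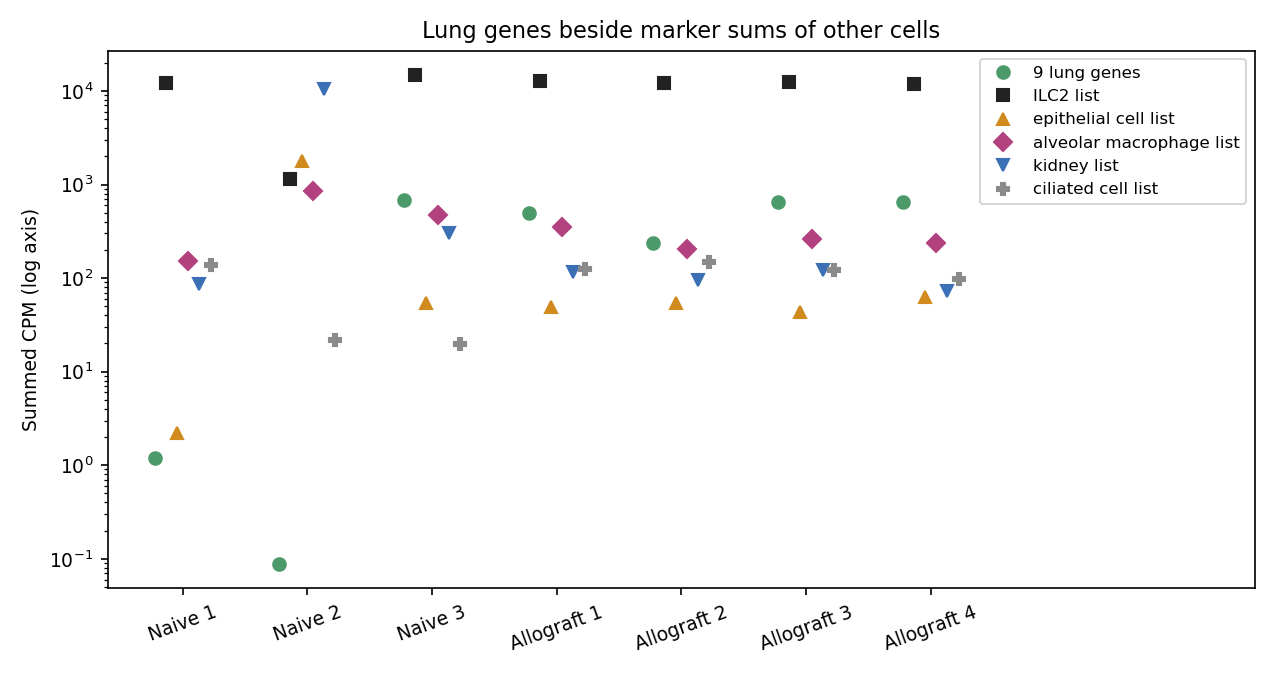
Summed CPM (log axis) in each library of the 9 lung genes and of fixed lists of ILC2, epithelial cell, alveolar macrophage, kidney and ciliated cell genes, with 1 symbol per list. The 9 lung genes sum to 1.21 and 0.0879 CPM in N1 and N2, while the epithelial and kidney sums peak in N2 at 1778 and 10618 CPM.

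The contrast of allograft with naive rested on the split among the naive libraries. Of the 9 genes, 7 passed the filter on low counts and 0 were called by edgeR at an adjusted p of 0.05, against 0.0353% of all genes. Scgb3a2 alone had an unadjusted p under 0.05, against 10.3% of all genes. It was also the 1 member called by DESeq2 (5.95% of all genes), by limma on FPKM (1.18%) and by edgeR without N2 (3.1%), and Sftpc was the 1 called without N3 (0.0372%). Nothing is read from any of these calls, since the choice of the genes used the same libraries. The fitted log2 fold changes of allograft over naive were 0.77 (SE 2.37) for Sftpc, 1.75 (SE 2.18) for Sftpa1, 2.52 (SE 2.22) for Sftpd and 1.78 (SE 1.99) for Sftpb. For the airway genes they were 1.46 (SE 2.41) for Scgb1a1, -1.79 (SE 2.77) for Cyp2f2 and 10.85 (SE 1.74) for Scgb3a2, whose naive libraries are all at 0. Each SE is the absolute log2 fold change divided by the square root of the test's F statistic, not a fitted standard error. For Scgb3a2 both values depend on the prior count. Scgb3a1 and Bpifa1 did not enter the fit. Every allograft library was above every naive library for 1 of the 7, Scgb3a2, against 12.5% of all genes tested. Leaving out N3, the 1 naive library that held Sftpc and Scgb1a1, moved their fitted log2 fold changes to 16.18 and 16.00 and turned that of Cyp2f2 to 4.70. Sftpc and Scgb1a1 then had 0 counts in every naive library, so the size of their fitted fold changes depends on the prior count. Compared with N3 alone, the allograft mean of Sftpc was lower, with a ratio of N3 to that mean of 1.69. The same ratio was 1.05 for Scgb1a1, 0.856 for Sftpa1, 0.632 for Sftpb, 0.498 for Sftpd and 9.91 for Cyp2f2.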

How the data were processed

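Whole-number counts per gene and FPKM values for 7 libraries were used as deposited by the authors. Per the submitters' processing notes, the tools were FastQC 0.11.5, STAR 2.5.3a, StringTie 1.3.1c and DESeq2 1.16.1 with build mm10. Filters, annotation release and use of strand are not given in the sources used here. Groups came from the sample titles, and columns were matched by library name. Over 7340 genes with high counts, the log2 ratio of deposited FPKM to CPM, less its mean per gene and per library, had an SD of at most 0.00352.

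CPM were computed from total counts (29107326 to 53044907). All genes were tested with edgeR 4.0.16 (R 4.3.3), a quasi-likelihood fit with TMM and filterByExpr, adjusted by Benjamini-Hochberg over 17015 genes, after a check on simulated data. The simulation gave both groups the same spread, so the check does not cover a naive group as uneven as this. Alternatives were DESeq2 1.42.0, limma 3.58.1 on log2(FPKM + 0.1), other filters and size factors, a replicate block and leaving out each library. The 9 genes and the lists were chosen with earlier results of these data known. Named by rule were all 9 genes, the 3 genes of each list with the highest mean CPM with any gene called, and the 5 genes nearest each sum; others were chosen after their values were seen. Libraries pool hearts, and p-values set group differences against the spread between libraries, which includes the different make-up of N2.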

Additional observations from a re-analysis of the deposited data

Results flagged for a closer look

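Single libraries far from the other 3 allografts were looked for in 51 values and found in 4. Chance gives about 1 in 20 for values that spread normally, but where the other 3 allografts are at 0, as for 3 of the 4, any level meets the rule, so no chance count applies. Scgb3a1 had 4.63 CPM and Bpifa1 7.68 CPM in allograft replicate 1, with 0 in the other 3 allografts. Cyp2f2 had 5.91 CPM in allograft replicate 4, against 0 to 0.840 CPM in the others. Cyp2s1, a P450 of the Cyp2 family, had 2.40 CPM in allograft replicate 4 and 0 in the others. The cause of these single-library values was not tested.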

How the results depend on the processing

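The count of all genes called, 6 (5 higher, 1 lower), was 1012 with DESeq2 (633 higher, 379 lower), 201 with limma on FPKM (195 higher, 6 lower) and 0 with the replicate block, where 252 genes had an unadjusted p under 0.05. With DESeq2 size factors in edgeR it was 4, all higher. Leaving out 1 library gave 0 to 560. For the 60 tested genes of the lung lists the count of 0 became 5 with DESeq2 and 1 with limma, and 0 to 8 on leaving out 1 library. It was 0 with the replicate block. Deviations of libraries with the same number from their group means correlated at 0.0524, -0.0262 and 0.0226 for numbers 1 to 3. Naive replicate 1 correlated best with the allograft of its own number, and naive replicates 2 and 3 with allografts of another number. With 3 and 4 libraries centred on their group means, these values can neither show nor exclude a pairing. In naive replicate 2 the number of genes detected was 0 at a minimum of 10 counts, in place of 1. On the FPKM scale the alveolar share was 46.1% in naive replicate 3 and 38.1%, 61.8%, 48.5% and 17.5% in allograft replicates 1 to 4. Without Sftpc it was 13.7% in naive replicate 3 and 18.2%, 37.1%, 27.3% and 7.89% in the allografts. The fitted log2 fold change kept its sign in every alternative that could be run for Sftpc, Sftpb, Sftpa1, Sftpd, Scgb1a1 and Scgb3a2. For Cyp2f2 it did so in 10 of 11 and turned to 4.70 without naive replicate 3. For Sftpc it ran from 0.17 to 16.2. Nothing is read from a kept sign, since every alternative kept naive replicate 1 or 2. There, the genes that kept their sign had 0 to 15 counts. The cause of the changes between settings was not tested. Levels near 3 counts are not resolved at this depth.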
